A study of Mus musculus with 6 samples.

Results

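NMDA receptors are glutamate-gated cation channels at excitatory synapses, built from subunits that 7 genes encode. Each channel holds GluN1, the glycine-binding subunit encoded by Grin1, together with GluN2 subunits that bind glutamate (Grin2a, Grin2b, Grin2c and Grin2d) or GluN3 subunits that bind glycine (Grin3a and Grin3b). The channel opens when agonist, co-agonist and depolarization coincide, and the calcium that enters drives synaptic plasticity. In rodent forebrain, GluN2B predominates early in life and GluN2A rises during postnatal maturation. GluN2C is best known from cerebellar granule cells, GluN2D from interneurons and deep brain nuclei, GluN3A from the young brain and GluN3B from motor neurons. The members were the entries whose gene symbol is 1 of these 7 names. All 7 were found, each as a single entry, among the 23282 gene entries of the 6 libraries.

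The libraries came from the forebrain of wild-type C57BL/6J male mice aged 8 to 10 weeks, with the olfactory bulbs and cerebellum removed. The control group of 3 libraries was fed a normal chow diet (NCD), and the other group of 3 libraries was fed a high-fat diet (HFD) with 60 kcal% fat, each for 10 days. The hemispheres were parted for RNA sequencing and metabolite measurements, and the labels do not say whether each library is a separate mouse, so the p-values measure the spread between libraries, which may be technical. The QuantSeq method starts reverse transcription at poly(A) tails, which places reads near the 3′ ends of transcripts. The comparison of diets asks whether a short exposure to dietary fat changed the transcripts of the receptor. Levels are given as CPM, the read count scaled to a common library size after TMM, a correction by the bulk of genes. Whole forebrain is a mixture of cell types, so fewer cells of a type and less RNA per cell cannot be told apart.

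The total count ranged from 6842785 to 9689372 per library, and a count of 3, taken as the floor, corresponded to 0.316 to 0.432 CPM. Of 7 markers of the striatum, a part of the forebrain, 6 lay above the floor on average and Drd2 had counts of 0 to 1, with a summed level of 667.5 to 727.5 CPM on the NCD and 678 to 722.2 CPM on the HFD. Of 9 cerebellar markers, which summed to 217.8 to 253.8 CPM, Gabra6 had counts of 0 to 1 and the other 8 lay above the floor on average, among them Pcp2 with counts of 94 to 191. HFD replicate 3 stood apart from the rest. Over genes with a mean count of at least 50, its root mean square difference in log2 CPM from each other library was 0.357 to 0.430. Pairs without it differed by 0.227 to 0.312. The 7 pituitary markers of HFD replicate 3, of which Gh was the highest and none was at 0, summed to 1265 CPM against 2.08 to 8.95 CPM in the other 5 libraries. Its 8 hypothalamic markers, of which Otp was at 0 in each library, summed to 26.7 CPM against 66.4 to 107 CPM. They did not all fall there. Pomc was at 12.2 CPM, against 1.16 to 4.64 CPM on the NCD, and Sim1, with counts of 2 to 5 over the libraries, was not lower. This library also held the pituitary markers, and which tissue its Pomc came from was not tested. Pmch was at 8.25 CPM, against 33.8 to 44.0 CPM on the NCD. The sum of 5 globin and erythroid markers was higher in each HFD library, at 543.8 to 824.5 CPM against 421.4 to 519.2 CPM on the NCD. Taken singly, Hba-a1 and Hbb-bt were separated in this way, as were 4.31% of all genes tested, while the levels of Hba-a2, Hbb-bs and Alas2 overlapped between the diets. The part of these differences in the results below was not tested. The fold changes of the 5 subunits that were lowest in HFD replicate 3 are given with and without it.

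Because the assay reads 3′ ends, the ends of the subunit transcripts are shown first. The following 30 bases close the annotated transcript that reaches farthest downstream, in GENCODE on GRCm38 (mm10), written 5′ to 3′ on the strand of the gene. Capitals mark a poly(A) signal, searched on that strand only as AATAAA or, where it was lacking, ATTAAA. Grin1 and Grin2a are shown because their annotated ends hold neither motif, Grin2b as the highest subunit, Grin2d as the subunit near 0, and Grin3b with Tmem259 because their ends overlap.
Grin1, chr2:25291181-25291210, minus strand: agtggtgatgcctaaaggaatgtcagaaaa
Grin2a, chr16:9567898-9567927, minus strand: gataatttctgccacttgatatgaaaatga
Grin2b, chr6:135713233-135713262, minus strand: AATAAAgaaacctaccacaaattatcaggg
Grin2d, chr7:45831883-45831912, minus strand: ggAATAAAaccatgtttttacgcctcctca
Grin3b, chr10:79977161-79977190, plus strand: gtacactgcaATTAAAtagcgtggaacgtg
Tmem259, chr10:79977118-79977147, minus strand: tatatagAATAAActgtcgtggacagtgtg
Of the subunits not shown, Grin3a ends with AATAAA and Grin2c with ATTAAA in the same window. Over 21839 protein-coding genes, 51.1% hold AATAAA in this window and 62.7% hold either motif. A missing motif says only that these letters are not in these 30 bases.

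The subunits also differ in the length of what lies behind the stop codon. Grin2b has a 3′ untranslated region of 18868 bases in this annotation and 5 alternative ends of coding transcripts, and that of Grin2a spans 9932 bases with 3 ends. The region is 3618 bases long in Grin3a, 1190 in Grin1, 900 in Grin2d, 405 in Grin2c and 89 in Grin3b. Which of these ends the counting used is not given in the sources used here, and this bears on each level that follows.

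In every library, Grin2b and Grin1 took most of the subunit counts. Of the summed subunit CPM, which ran from 408 to 601 over the 6 libraries, Grin2b made up between 45.1% and 49.96% and Grin1 between 33.0% and 38.8%. Grin3a followed with 6.37% to 7.71%, Grin2c with 5.25% to 6.801% and Grin3b with 3.51% to 4.48%. Grin2a made up 0.140% to 0.635%, and Grin2d at most 0.0408%. These shares are of 3′ tag counts, are not divided by length and are not the make-up of the receptor protein. Grin2a was counted 7 to 26 times per library, which is little for a subunit that rises during maturation of the forebrain. The part of the counting and of the annotated ends in this low level was not tested.

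Grin2b, which encodes GluN2B and lies on chromosome 6 from 135713233 to 136173511, had 276, 223 and 272 CPM in the 3 NCD libraries, given here and below in the order of their replicate numbers. In the HFD libraries it had 294, 258 and 199 CPM. The libraries of the diets overlapped, with both the highest and the lowest value on the HFD. Its log2 fold change of HFD over NCD was -0.04 (standard error 0.13, 95% interval -0.32 to 0.25, adjusted p = 0.99). This and the following fold changes come from the quasi-likelihood test of edgeR, and their p-values were adjusted for all 13771 genes tested by the Benjamini-Hochberg method. Without HFD replicate 3 it was 0.10, without NCD replicate 1 it was 0.02, and without NCD replicate 3 it was 0.01, so the direction of this small difference rested on single libraries.

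Grin1, the gene of the obligatory subunit GluN1 on chromosome 2 from 25291181 to 25319187, had 188, 178 and 233 CPM after chow, compared with 196, 181 and 135 CPM after the HFD. NCD replicate 3 held the highest level and HFD replicate 3 the lowest, while the other 4 libraries lay between 178 and 196 CPM. The mean was 200 ± 29.2 CPM in NCD libraries (SD, n = 3) and 171 ± 31.9 CPM in HFD libraries (SD, n = 3). The log2 fold change of -0.23 (standard error 0.14, 95% interval -0.52 to 0.07) had an unadjusted p of 0.119 and an adjusted p = 0.979 in the same edgeR fit. Leaving out HFD replicate 3 shrank it to -0.09 and leaving out NCD replicate 3 to -0.10. With HFD replicate 1 left out it was -0.34, for which the unadjusted p was 0.0387.

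The 3 subunits of intermediate level showed smaller differences than Grin1. Grin2c, encoding GluN2C on chromosome 11 from 115249169 to 115267243, had NCD levels of 33.6, 31.2 and 32.4 CPM and HFD levels of 30.9, 32.8 and 27.8 CPM. This was the steadiest of the 6 subunits tested, with a coefficient of variation over the 6 libraries of 6.54%, close to the 6.20% that counting error alone gives. Its log2 fold change was -0.08 (standard error 0.13, 95% interval -0.36 to 0.19), and it was -0.02 without HFD replicate 3 and -0.14 without HFD replicate 2. For Grin1 the coefficient of variation was 17.1% against 2.55% from counting, and for Grin2b 14.2% against 2.19%.

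Grin3a, the gene of the glycine-binding subunit GluN3A on chromosome 4 from 49661611 to 49845744, had 43.2, 38.1 and 38.2 CPM in NCD libraries, beside 40.5, 40.9 and 27.2 CPM in HFD libraries. HFD replicate 3 alone lay below the other 5 libraries. The log2 fold change of -0.14 (standard error 0.15, 95% interval -0.46 to 0.18) became 0.03 without that library. Ppp3r2, a calcineurin subunit gene inside the Grin3a locus on the same strand, shares no exon with it and had at most 0.0253 times its count.

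Grin3b, encoding GluN3B on chromosome 10 from 79970715 to 79977190, reached 19.7, 22.1 and 24.0 CPM under chow and 23.6, 21.1 and 17.6 CPM under the HFD. The groups overlapped, and its log2 fold change of -0.08 (standard error 0.15, 95% interval -0.41 to 0.24) became 0.02 without HFD replicate 3. The adjusted p was 0.979 for Grin2c, Grin3a and Grin3b (edgeR's quasi-likelihood test). HFD replicate 3 held the lowest value of Grin1, Grin2b, Grin2c, Grin3a and Grin3b. It was also the library with the pituitary markers, and the part of these in the low subunit levels was not tested.

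**Figure D1:**
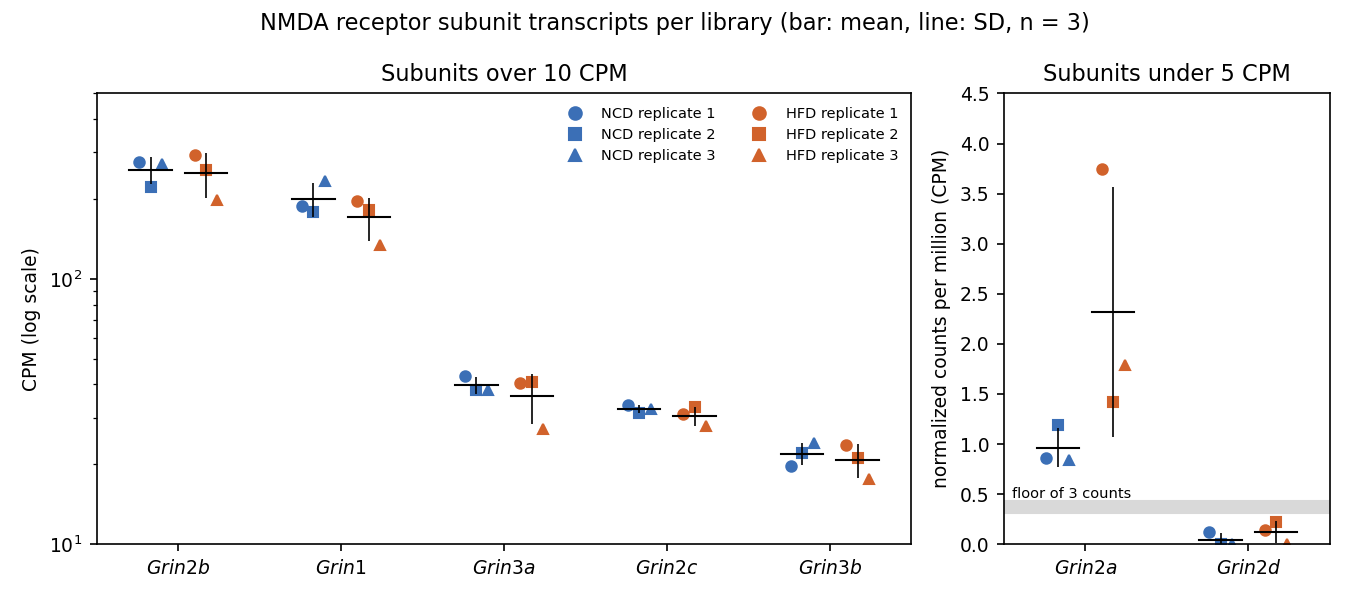
CPM of the 7 subunits in each library, with abundant subunits on a log axis at left and Grin2a and Grin2d on a linear axis at right. Points are libraries, horizontal bars are means and vertical lines SDs of 3 libraries per diet. HFD replicate 3 (orange triangle) is lowest for the 5 subunits at left, Grin2a of the HFD libraries lies above that of the NCD libraries, and Grin2d lies under the floor of 3 counts.

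At the low end, Grin2a had the largest diet difference among the 6 subunits tested. The gene encodes GluN2A, the subunit of mature forebrain synapses, and lies on chromosome 16 from 9567898 to 9995560. It was counted 7, 11 and 8 times in NCD libraries, and 26, 13 and 13 times in HFD libraries. As CPM these were 0.864, 1.19 and 0.843 for chow and 3.74, 1.42 and 1.79 for the HFD, so each HFD library lay above each NCD library. Among all genes tested, 4.31% were separated in this direction and 4.49% in the other.

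The log2 fold change of Grin2a was 1.22 (standard error 0.50, 95% interval 0.17 to 2.28) with an unadjusted p of 0.0253 and, after correction in edgeR, an adjusted p = 0.979. An unadjusted p under 0.05 was found in the higher direction for 1.71% of all genes tested and in the lower direction for 1.98%. Grin2a passed the filter for testing, a minimum count of 10 scaled to library size, through its HFD libraries. NCD replicates 1 and 3, with counts of 7 and 8, lay below that minimum, and the NCD libraries alone would not have passed. Its p-value, interval and place beside these shares are therefore no independent support for a diet difference. Counting error is wide at these counts, with a 95% exact Poisson interval of 16.98 to 38.1 for the count of 26, of 6.92 to 22.2 for a count of 13 and of 2.81 to 14.4 for the count of 7. HFD replicate 1 set much of the difference, since leaving it out gave a log2 fold change of 0.72 (unadjusted p of 0.246). Leaving out NCD replicate 1 gave an unadjusted p of 0.0656, and leaving out NCD replicate 3 gave 0.0691. The Grin2a difference did not pass the correction for all genes, and its size depended on HFD replicate 1.

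Grin2d, encoding GluN2D on chromosome 7 from 45831883 to 45878378, was counted 1, 0 and 0 times in NCD libraries and 1, 2 and 0 times in HFD libraries. All 6 counts were under the floor of 3, so no fold change is given, and a diet difference was not detectable at this depth. An antisense transcript, Gm45441, shares 643 exon bases with Grin2d.

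**Figure D2:**
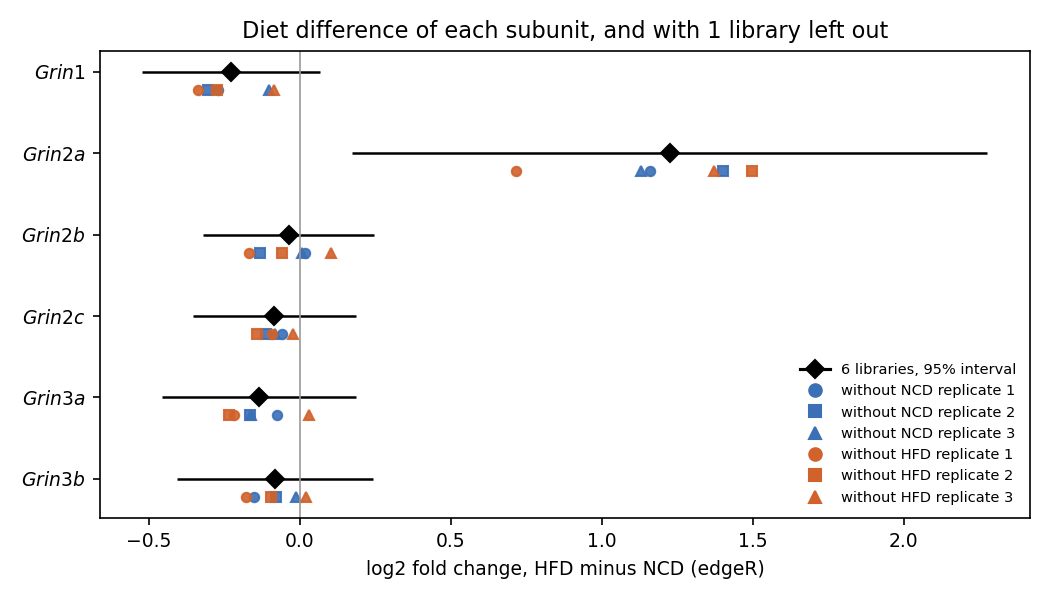
Log2 fold change of HFD over NCD for the 6 subunits tested, from edgeR. Black diamonds with lines are the estimates from 6 libraries with their 95% intervals, and coloured symbols below are the estimates with 1 library left out. The interval of Grin2a alone excludes 0, and its estimate without HFD replicate 1 lies at 0.72. Grin2a passed the filter for testing through its HFD libraries.

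Among the 6 subunits tested, 1 was called at an unadjusted p under 0.05, against 3.68% of all genes tested, and 0 had an adjusted p under 0.05. Over all genes, edgeR called 0% at an adjusted p under 0.05 and 507 genes at an unadjusted p under 0.05, while DESeq2 called 2 genes after adjustment, neither of them a subunit. The median log2 fold change of the 6 was -0.08, against -0.00245 over all genes tested, and it was 0.03 without HFD replicate 3. Of the 6, 5 lay below 0, as did 50.6% of all genes tested, but Grin2b, Grin3a and Grin3b of these 5 lay above 0 without HFD replicate 3. These counts describe subunits chosen with earlier results of these data known, and the 1 called, Grin2a, passed the filter through its HFD libraries.

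The balance of subunits was compared within libraries, since the diet difference of such a ratio depends neither on gene length nor on library size. The log2 ratio of Grin2a to Grin2b was -8.22, -7.49 and -8.25 in NCD libraries and -6.27, -7.45 and -6.75 in HFD libraries. The difference between the diets was 1.16, and the groups were separated by a narrow margin between NCD replicate 2 and HFD replicate 2. The exact two-sided permutation test gave p = 0.1, the smallest that 3 libraries against 3 allow, and p = 0.2 after Benjamini-Hochberg adjustment over the 4 ratios compared.

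Relative to Grin1, Grin2a lay higher on the HFD, with a difference of 1.35 on the log2 scale (exact permutation p = 0.1, adjusted p = 0.2). The ratios to Grin2b and to Grin1 share the Grin2a counts and are not independent. They reuse the counts behind the Grin2a fold change, and Grin2a passed the filter through its HFD libraries. These 2 ratios are therefore no further support for a diet difference. The log2 ratio of Grin2b to Grin1 was 0.37 ± 0.17 (SD, n = 3) on the NCD and 0.55 ± 0.04 (SD, n = 3) on the HFD (exact permutation p = 0.2, adjusted p = 0.267), and NCD replicate 1 overlapped the HFD libraries. For Grin3a to Grin1 the values were -2.32 ± 0.26 (SD, n = 3) and -2.24 ± 0.08 (SD, n = 3), with an exact permutation p = 0.9 and the same value after adjustment. In HFD replicate 3 the ratios of Grin2b and Grin3a to Grin1 lay within the range of the other 5 libraries, although the CPM of each gene was lowest there.

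The order of the subunits depended on the scale. In CPM, Grin2b stood above Grin1 in 6 of 6 libraries, although their ranges over libraries overlapped (199 to 294 CPM and 135 to 233 CPM). Grin3a stood above Grin2c in 5 of 6 libraries with overlapping ranges, Grin2c above Grin3b and Grin3b above Grin2a in 6 of 6. Per kb of annotated exon, a scale made for reads from whole transcripts, Grin1 came first with a median of 19.0 CPM per kb and Grin2b second with 10.7 CPM per kb. Grin3b had 6.55 CPM per kb and Grin2c 6.32 CPM per kb with overlapping ranges, and Grin3a had 3.21 CPM per kb. Grin2a and Grin2d remained at the sixth and seventh place on both scales, with 0.0727 and 0.00927 CPM per kb.

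The counts of 2 subunits can hold reads of neighbouring genes. The reads were counted from unique and multiple alignments, and whether the counting used strand is not given in the sources used here. Without strand, reads of a gene and of a gene on the opposite strand cannot be told apart where they overlap. The neighbour counts below are raw and also follow the total count of a library, which was 9689372 in NCD replicate 3 and 7603293 in HFD replicate 3. The part of depth in the shared order of libraries was not tested.

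Tmem259, which encodes a membrane protein of the endoplasmic reticulum, lies tail to tail with Grin3b on the opposite strand. The coding transcripts printed above share 73 bases at their ends, and with the other annotated transcripts of Tmem259 all of the last 500 bases of Grin3b fall into exons of both genes. Tmem259 was counted 182, 215 and 269 times in NCD libraries and 177, 201 and 141 times in HFD libraries. The counts of Grin3b were 160, 205 and 228 in the former and 164, 193 and 128 in the latter. The count of Tmem259 was between 1.04 and 1.18 times that of Grin3b in the 6 libraries, and the order of the libraries was the same except for NCD replicate 1 and HFD replicate 1. Its log2 fold change of -0.15 (standard error 0.15) was close to the -0.08 of Grin3b. How much of the Grin3b count came from either gene cannot be told apart.

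Grin1os, an antisense transcript of Grin1, shares 1307 exon bases with it, of which 123 lie in the last 500 bases of Grin1. In NCD libraries it was counted 1037, 1148 and 1799 times and in HFD libraries 998, 1250 and 741 times, which is 0.681 to 0.813 times the count of Grin1. As for Grin1, the highest count was in NCD replicate 3 and the lowest in HFD replicate 3, and its log2 fold change of -0.21 (standard error 0.16) stood beside -0.23 for Grin1. Lrrc26, the next gene beyond the 3′ end, lies on the opposite strand, ends at the base next to the end of Grin1 in GENCODE and overlaps its span by 17 bases in RefSeq. Its counts of 290, 312 and 334 and of 253, 318 and 131 were 0.134 to 0.192 times those of Grin1. The neighbours of the other subunits that share exon bases (Gm14329, Gm22892 and Gm26653 at Grin2b, Gm25837 at Grin2c) overlap none of the last 500 bases.

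**Figure D3:**
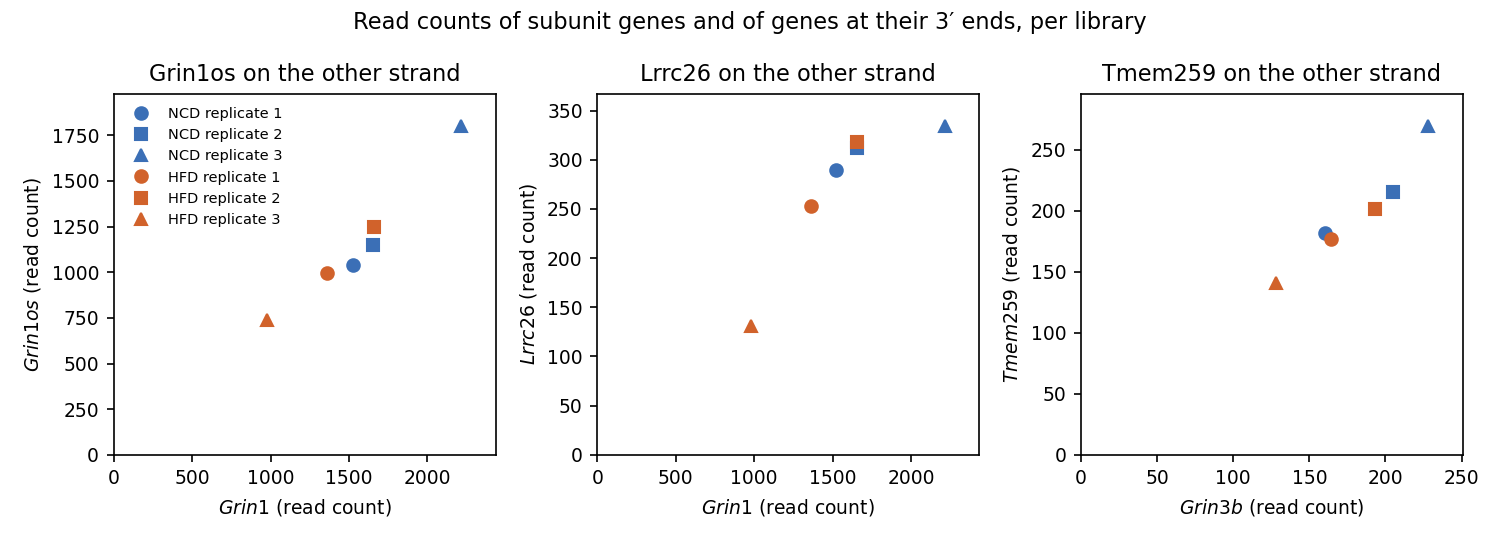
Raw read counts per library, not scaled to depth, of Grin1os and Lrrc26 against Grin1 and of Tmem259 against Grin3b, both axes from 0. Each point is a library, with NCD in blue and HFD in orange, and HFD replicate 3 is lowest and NCD replicate 3 highest on both axes of each panel. Counts of Tmem259 are 1.04 to 1.18 times those of Grin3b.

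**Figure D4:**
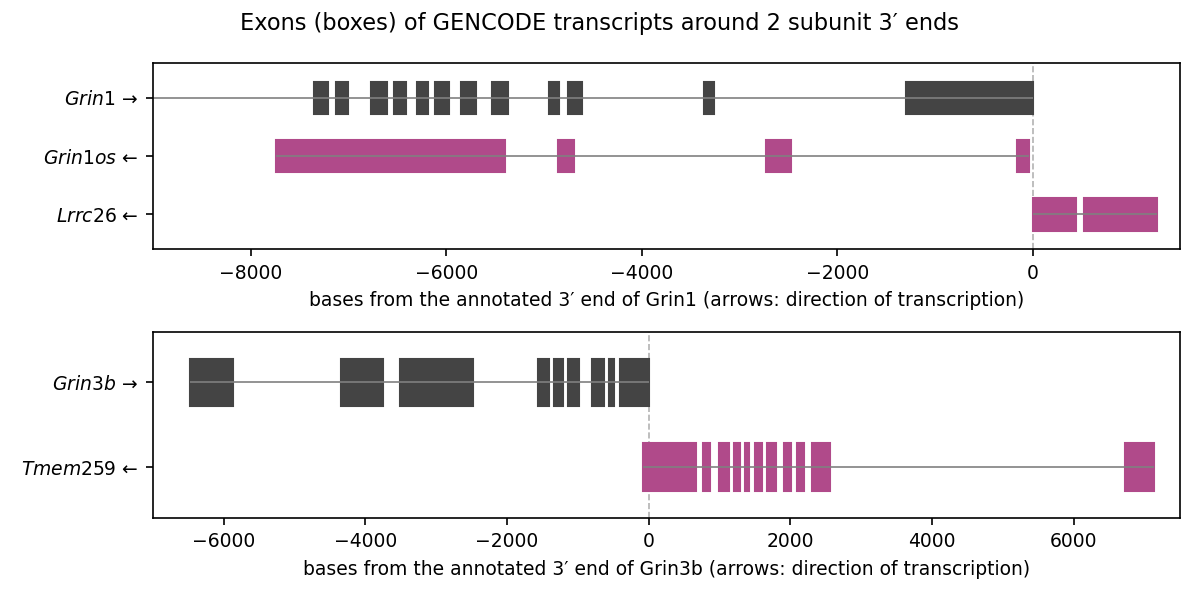
Exons of GENCODE transcripts, drawn to scale in bases from the annotated 3′ end of Grin1 (top) and of Grin3b (bottom). Dark grey boxes are the subunit gene, purple boxes genes on the opposite strand and arrows the direction of transcription, and the ends of Grin3b and Tmem259 share 73 bases.

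Genes whose level followed a subunit most closely over the 6 libraries were searched by the root mean square difference of their centred log2 CPM, among 10714 genes with a mean count of at least 50. Nearest to Grin1, whose log2 CPM had an SD of 0.26, were Smarca4, a chromatin remodelling ATPase, with a difference of 0.0337, and Jph4, a junctophilin of neurons, with 0.0393. Znrf1, a ubiquitin ligase, with 0.0390, Cttn, the actin-binding cortactin, with 0.0404, and Chd7, another chromatin remodeller, with 0.0493 lay nearest to Grin2b. These points share library, depth and scaling, and with so many genes a few must lie close. The genes nearest to Grin2a, namely Ppp1r3g, Ccdc176 and Hba-a2, differed from it by 0.42 to 0.45, which is large beside its own SD of 0.80. Hba-a2 has a near-identical copy in Hba-a1, so its count is uncertain.

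The genes that act with the receptor were described through 5 lists with 74 genes, of which 72 were tested. At an unadjusted p under 0.05 there were 2 of these, or 2.78%, against 3.68% of all genes tested, 1 higher and 1 lower on the HFD, and 0 had an adjusted p under 0.05. In 5.56% of the 72 the libraries of the diets did not overlap, against 8.81% of all genes tested. The median log2 fold change was -0.03, against -0.00245 over all genes tested, and 45 of 72, or 62.5%, lay below 0, against 50.6% of all genes tested.

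Co-agonist supply covers synthesis, breakdown and transport of D-serine and glycine. Of the 11 genes listed, 9 were tested and 0 were called in either direction, with a median log2 fold change of -0.06, which was -0.15 without HFD replicate 1 and -0.03 without HFD replicate 3. Srr, the serine racemase that makes D-serine, was at 81.4 ± 6.63 CPM in NCD libraries (SD, n = 3) and at 82.4 ± 4.48 CPM in HFD libraries (SD, n = 3). Slc6a9, the glycine transporter GlyT1, had 61.3 ± 6.88 CPM (SD, n = 3) and 51.8 ± 14.6 CPM (SD, n = 3), a difference within the spread of the libraries. Slc6a5, the glycine transporter of brainstem and spinal neurons, had 0 counts.

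Of the 23 scaffold and transport genes, all were tested, 1 was called higher and 0 lower, which is 4.35% against 3.68% of all genes tested. In 13% of them the libraries of the diets did not overlap, against 8.81% of all genes tested. The median log2 fold change was -0.03, with a range of -0.09 to -0.01 when single libraries were left out. Homer1, a scaffold that links the receptor's postsynaptic complex to metabotropic glutamate receptors, had NCD levels of 136, 136 and 125 CPM and HFD levels of 148, 141 and 184 CPM. Each HFD library was above each NCD library, and HFD replicate 3 was the highest. The log2 fold change of Homer1 was 0.26 (standard error 0.12), for which edgeR gave 0.0444 as unadjusted p and an adjusted p = 0.979. It was 0.13 when HFD replicate 3 was left out, where the unadjusted p was 0.17. Leaving out NCD replicate 1, 2 or 3 gave an unadjusted p of 0.073, 0.0691 and 0.118. Dlg4, which encodes PSD-95, the scaffold that binds the tails of GluN2 subunits, measured 327 ± 17.6 CPM in NCD libraries (SD, n = 3) and 341 ± 42.8 CPM in HFD libraries (SD, n = 3). Its relative Dlg3, which encodes SAP102, had 192 ± 10.4 CPM (SD, n = 3) and 166 ± 6.63 CPM (SD, n = 3), without overlap of the libraries but with an unadjusted p of 0.0501. Dlg3 was named after its value was seen.

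The 22 kinases and calcium effectors were all tested, 0 were called in either direction, and the median log2 fold change was -0.06, which was -0.03 without NCD replicate 3 and -0.01 without HFD replicate 3. Camk2a, the kinase that binds GluN2B after calcium entry, averaged 1719 ± 166 CPM in NCD libraries (SD, n = 3) and 1631 ± 329 CPM in HFD libraries (SD, n = 3). Nos1, the nitric oxide synthase coupled to the receptor through PSD-95, had 56.4 ± 7.30 CPM (SD, n = 3) and 47.3 ± 11.9 CPM (SD, n = 3). Of 8 surface partners tested, 0 were called, with a median log2 fold change of -0.03 that ran from -0.08 to -0.02 when single libraries were left out. Grina, which carries an NMDA receptor name without being a subunit, averaged 295 ± 30.01 CPM in NCD libraries (SD, n = 3) and 296 ± 47.2 CPM in HFD libraries (SD, n = 3).

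Among 10 genes induced by calcium entry at synapses, 0 were called higher and 1 lower, which is 10% against 3.68% of all genes tested. Of the 10, 6 had a log2 fold change above 0 and 4 below, with a median of 0.07. This median was 0.27 without NCD replicate 3, -0.05 without NCD replicate 2 and -0.0092 without NCD replicate 1, so its direction rested on single libraries. Npas4, a neuronal transcription factor induced by calcium, was counted 13, 22 and 51 times in NCD libraries and 13, 11 and 11 times in HFD libraries. The groups overlapped, with the highest count in NCD replicate 3, the library in which Grin1 was highest as well. The log2 fold change of Npas4 was -1.05 (standard error 0.47), for which edgeR gave 0.0399 as unadjusted p and an adjusted p = 0.979. It was -0.40 when NCD replicate 3 was left out, where the unadjusted p was 0.422. Leaving out HFD replicate 2 or 3 gave an unadjusted p of 0.128 or 0.0755. Fosb and Egr1, named after their values were seen, went the other way, each with a log2 fold change of 0.24. For Fosb each HFD library lay above each NCD library, as for 4.31% of all genes tested, and edgeR gave an unadjusted p of 0.361. The libraries of Egr1 overlapped, and its unadjusted p from edgeR was 0.0559. Arc, which encodes a protein of AMPA receptor trafficking, averaged 38.6 ± 13.2 CPM in NCD libraries (SD, n = 3) and 38.7 ± 7.78 CPM in HFD libraries (SD, n = 3).

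**Figure D5:**
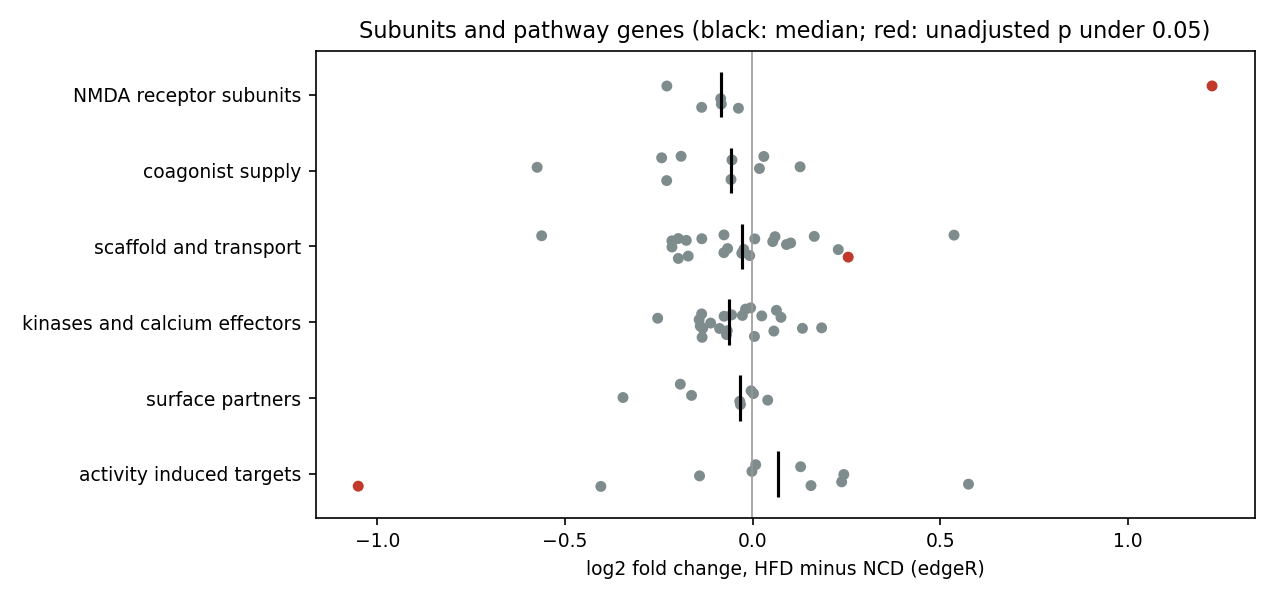
Log2 fold change of HFD over NCD (x axis, edgeR) for the subunits tested and the genes of the 5 lists, 1 point per gene, with vertical spread for visibility only. Black bars are medians between -0.08 and 0.07, and red points, Grin2a, Homer1 and Npas4, are the genes with an unadjusted p under 0.05.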

How the data were processed

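The authors trimmed QuantSeq 3′ reads, mapped them to mm10 with Bowtie2, and counted unique and multiple alignments per gene with Bedtools. The counts as deposited are raw whole numbers; the quantile normalization that the study's methods name came later. The annotation, the use of strand and tool versions are not given in the sources used here. Counts were analysed with R 4.3.3, edgeR 4.0.16, limma 3.58.1 and DESeq2 1.42.0. filterByExpr (minimum count 10, minimum total count 15) kept 13771 genes, TMM factors were applied, and diets were compared over 3 and 3 libraries with glmQLFit and glmQLFTest, without a covariate and with Benjamini-Hochberg adjustment over all genes tested. Standard errors are the log2 fold change over the square root of F. CPM of all genes use the same factors. Ratios had 0.5 added to each count. The floor and the Poisson intervals cover counting error only.

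The members and lists were chosen with earlier results of these data known. The text names the 7 subunits, list genes with an unadjusted p under 0.05, and for Grin1, Grin2b and Grin2a the 3 genes nearest in profile, of which 1 is not reported here. Neighbours were taken from the annotation, and other list genes for their role, after their values were seen. Positions are from GENCODE vM21 on GRCm38 and RefSeq on GRCm38.p6. Samples with the same replicate number did not deviate together. The edgeR, DESeq2 and limma fits were also run on simulated counts with known changes, and no result above rests on that run. Python 3.11.15 was used with pandas 2.3.3 for tables, numpy 2.4.6 and scipy 1.17.1 for exact tests, and matplotlib 3.10.9 for plots. Other choices tried for the fits were the DESeq2 Wald test, limma on quantile-normalized log2(CPM + 1), and scaling by the upper quartile, by DESeq2 size factors or by library size alone. The filter was dropped or raised to 10 counts per library, genes above 2% of the counts were removed, dispersions were estimated robustly, the replicate number entered as a block, and single libraries were left out. For ratios 0 or 1 was added, and for the order of levels CPM was divided by exon length.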

Additional observations from a re-analysis of the deposited data

How the results depend on the processing

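No alternative gave a subunit an adjusted p under 0.05, and Grin2a, Grin1 and Grin2c kept their direction in all fits made, while Grin2a could not be tested with at least 10 counts in every library, which left 0 subunits at an unadjusted p under 0.05. With each library left out in turn, this count ran from 0 to 1, the log2 fold change ran from -0.17 to 0.10 for Grin2b, from -0.14 to -0.02 for Grin2c, from -0.24 to 0.031 for Grin3a and from -0.18 to 0.019 for Grin3b, and the difference in the log2 ratio of Grin3a to Grin1 ran from -0.068 to 0.17. Over the other alternatives the log2 fold change of Grin2a lay between 0.70 and 1.25, lowest with limma on quantile-normalized log2(CPM + 1), where 1 is added to each level. Per kb of exon, 3 of the 7 subunits kept their place in the order. The count of list genes at an unadjusted p under 0.05 was 1 with quantile normalization, 4 without a filter and 0 with the replicate block, and ran from 2 to 4 with a library left out. Same-numbered libraries had correlations of -0.0658, -0.00251 and -0.113 across genes, and the replicate block changed no call of a subunit. Over all genes, 23 genes had an adjusted p under 0.05 without a filter and 2 with DESeq2, and between 0 and 3 with a library left out, 3 of them without NCD replicate 3. The 235 genes higher and 272 lower at an unadjusted p under 0.05 became 408 and 494 without a filter and 152 and 303 with library size alone, and with a library left out the higher genes ran from 182 to 366. The cause of these changes was not tested. Counting error was widest for Grin2d and Grin2a, with counts of 0 to 26, and the part of depth or of the annotated ends in these low counts was not tested.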
